A study of Mus musculus with 15 samples.

Results

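The genes described here are 10 members of the cholinergic anti-inflammatory pathway and the inflammasome, followed through banded mouse hearts given a cholinergic drug or saline. They were Jak2, Stat3, Nfkb1, Nfkbia, Tnf, Il6, Il1b, Il18, Nlrp3 and Casp1, taken by gene symbol from a table of 54532 genes. All 10 were found. No member passed the test in any comparison of the groups. The smallest adjusted p among them were those of Nfkbia and Stat3, which had their highest mean levels with donepezil. The largest log2 fold changes were those of Il18, a gene with few reads that was tested only because of its levels in donepezil and saline libraries. The 4 cytokine genes and Nlrp3 had few reads in these libraries, at most 60 in any of them.

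In the cholinergic anti-inflammatory pathway, acetylcholine acts on the alpha7 nicotinic receptor of macrophages, which restrains the release of TNF, IL-1 beta and IL-6. The kinase JAK2 and the transcription factor STAT3 carry that signal, and the NF-kB system, which drives the cytokine genes, is held back. The inflammasome is a complex built on the sensor NLRP3, in which caspase-1 cuts the precursors of IL-1 beta and IL-18 into their active forms. Much of this control acts on proteins, through phosphorylation, degradation and cleavage, which RNA levels do not show.

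The hearts came from wild-type C57BL/6 mice and were overloaded by a band around the aorta (transverse aortic constriction, TAC). The age given for the mice is 8 to 10 weeks, and the time point it refers to is not stated here. The first group received donepezil, which blocks acetylcholinesterase, at 5 mg/kg/day. The second received encenicline (EVP-6124), an agonist of the alpha7 nicotinic receptor, at 2 mg/kg/day, and the third received physiological saline. Drugs were given in the drinking water from 4 weeks after TAC, with 15 mice randomised per group, and the libraries are labelled TAC 8 weeks. The study asked whether raising acetylcholine or activating the receptor does more for the failing heart. Each group had 5 libraries of total heart RNA, and all 15 came from banded hearts. The labels do not say that each library is a different mouse, so p-values measure the spread between these samples.

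Expression is given in FPKM, read fragments per gene length and library size. Read totals worked out from these values were 14496147 to 17176086 per library, with 17.4 to 27.0% mitochondrial. Summed cardiomyocyte markers ran from 12891 to 21332 FPKM. The titles of donepezil 1 and encenicline 1 disagree with their treatment fields, which read saline for donepezil 1 and donepezil for encenicline 1. Groups follow the titles, and counts without these 2 libraries, or with the groups of the field, stand beside the results they touch. Donepezil 4 and saline 3 had the most macrophage marker RNA, at 630 and 536 FPKM summed over 17 markers, against 274 to 453 FPKM in the other 13 libraries. Donepezil 4 also had 924 FPKM of fibroblast markers, against 148 to 320 FPKM elsewhere.

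The stretch of 250 bases before the start of transcription is shown for the 3 members in which the NF-kB consensus was found, Nfkbia, Il6 and Nlrp3. It is also shown for Stat3, the member whose encenicline and donepezil libraries, grouped by title, did not overlap. The sequences are from RefSeq on the build GRCm38.p6, each written 5′ to 3′ on the strand of its gene. Capitals mark the NF-kB consensus, read on either strand. The windows are chr12:55492648-55492897 on the minus strand for Nfkbia, chr5:30012864-30013113 on the plus strand for Il6, chr11:59541319-59541568 on the plus strand for Nlrp3 and chr11:100939541-100939790 on the minus strand for Stat3.
Nfkbia: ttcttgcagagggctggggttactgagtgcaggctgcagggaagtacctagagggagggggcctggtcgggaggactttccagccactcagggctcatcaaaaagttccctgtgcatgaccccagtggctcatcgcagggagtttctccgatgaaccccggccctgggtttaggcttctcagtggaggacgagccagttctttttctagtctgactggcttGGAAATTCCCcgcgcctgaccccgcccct
Il6: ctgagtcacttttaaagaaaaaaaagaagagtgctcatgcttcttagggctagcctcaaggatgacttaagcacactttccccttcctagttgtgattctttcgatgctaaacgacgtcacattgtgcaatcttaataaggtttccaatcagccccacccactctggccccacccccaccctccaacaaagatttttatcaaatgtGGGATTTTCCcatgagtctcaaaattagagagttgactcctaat
Nlrp3: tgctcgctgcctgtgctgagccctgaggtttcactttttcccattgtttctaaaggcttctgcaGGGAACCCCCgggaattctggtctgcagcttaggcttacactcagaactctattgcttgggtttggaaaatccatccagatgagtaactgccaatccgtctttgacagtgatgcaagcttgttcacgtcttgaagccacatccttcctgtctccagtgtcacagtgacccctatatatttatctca
Stat3: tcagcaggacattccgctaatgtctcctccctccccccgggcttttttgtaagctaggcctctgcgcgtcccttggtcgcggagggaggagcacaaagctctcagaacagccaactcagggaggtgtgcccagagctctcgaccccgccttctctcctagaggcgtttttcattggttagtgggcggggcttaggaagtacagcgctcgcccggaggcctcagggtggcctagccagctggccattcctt

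In the Nfkbia window the match lies 29 to 20 bases before the start and reads on the other strand. In the Il6 window it lies 44 to 35 bases before the start on the gene's strand, and in the Nlrp3 window 186 to 177 bases before the start on both strands. RefSeq gives 2 starts for Nlrp3, and the window of the other start held no match. Promoters were found for 9 of the 10 members, without Nfkb1. The NF-kB consensus was present in 7.25% of all 32851 promoter windows of this length. The STAT motif TTCNNNGAA, which reads alike on both strands, was present in 7.02% of them and in 0 of the members' windows. A match describes these letters and does not by itself show binding. A missing match says only that the letters are not in the window.

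The 10 genes covered a wide range of levels. Nfkbia averaged 36.0 FPKM over the 15 libraries, Stat3 17.1, Jak2 7.20, Nfkb1 4.55 and Casp1 1.79 FPKM. Il1b averaged 0.583 FPKM, Il18 0.353, Nlrp3 0.229, Tnf 0.159 and Il6 0.0184 FPKM. Among the first 5 of these genes no library of a gene reached the range of its neighbour in the order, while from Casp1 downward the ranges of neighbours overlapped. A gene was tested where 5 or more libraries reached 0.5 FPKM, which held for 13396 genes. Of the members 7 passed this filter, and Tnf, Il6 and Nlrp3 did not.

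**Figure D1:**
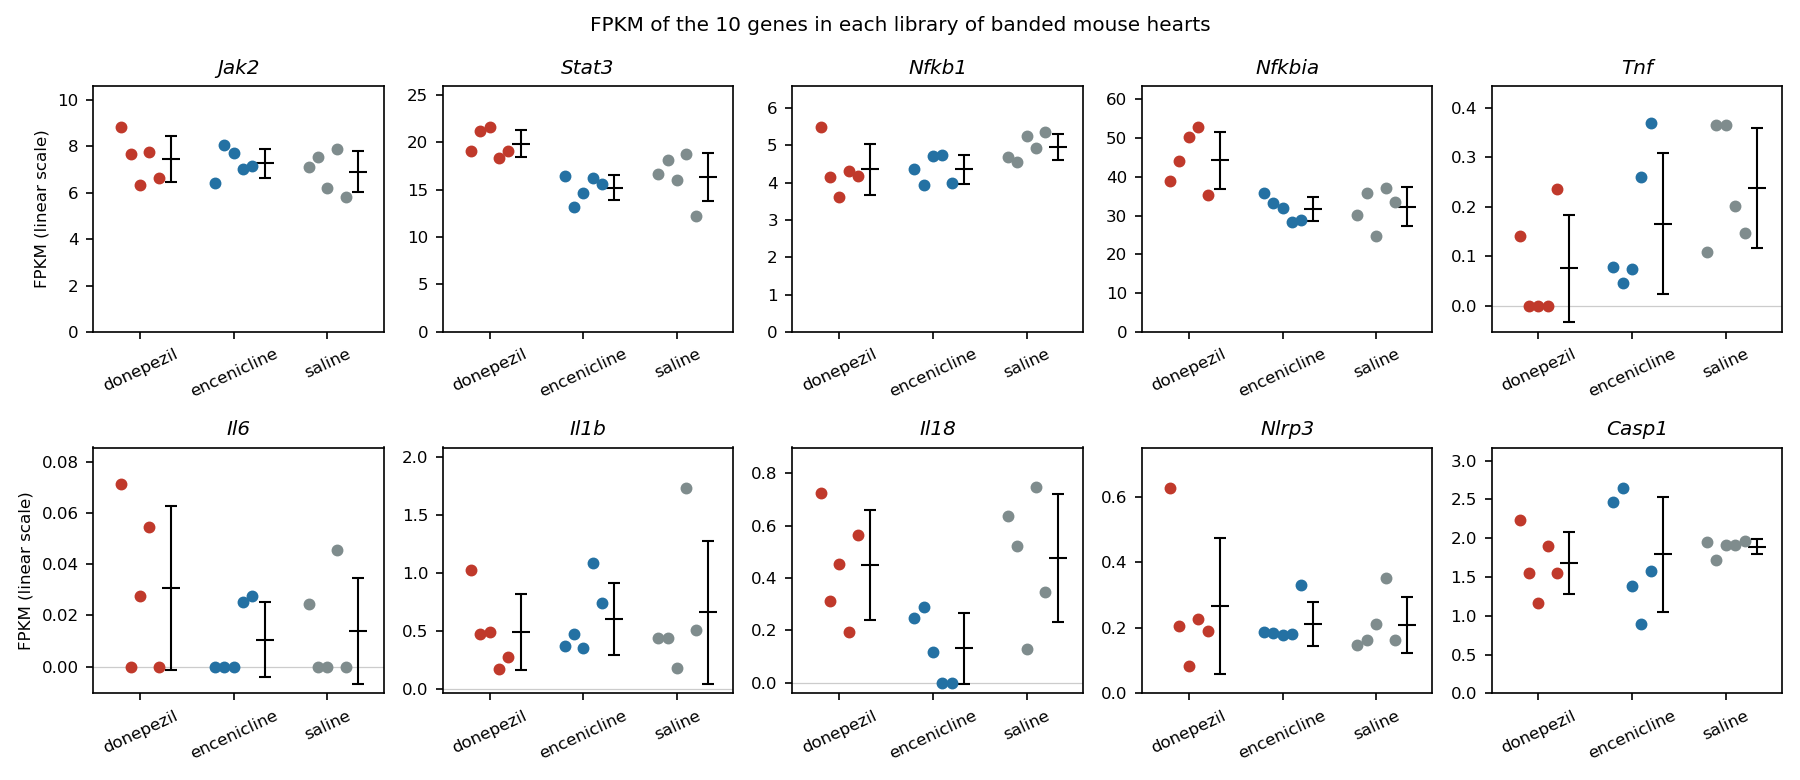
FPKM of the 10 genes in each library (points), with the mean and SD of each group (black), for donepezil, encenicline and saline from left to right, 5 libraries each, on a linear axis of its own per gene. Nfkbia and Stat3 lay highest in donepezil libraries. Tnf was at 0 in 3 libraries titled donepezil, among them donepezil 1, whose treatment field reads saline.

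Of the 7 members tested, 0 passed in any comparison by limma's moderated test on log2(FPKM + 0.5), two-sided, with Benjamini-Hochberg adjustment over all 13396 genes and a threshold of 0.05. Among all genes tested, 2.12% passed in donepezil against saline, 0% in encenicline against saline and 0.933% in encenicline against donepezil. In encenicline against saline the smallest adjusted p was 0.293, with 9.22% of genes at an unadjusted p under 0.05. The 3 groups share libraries between comparisons, so the comparisons are not independent of each other. Libraries of the compared groups did not overlap for 0 of the 7 members in donepezil against saline, where this held for 3.90% of all genes tested. They did not overlap for 0 of 7 in encenicline against saline (1.69% of all genes) and for 1 of 7, Stat3, in encenicline against donepezil (4.07% of all genes). With the 2 libraries of conflicting labels left out, or with the groups of the treatment field, 0 members passed as well.

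**Figure D2:**
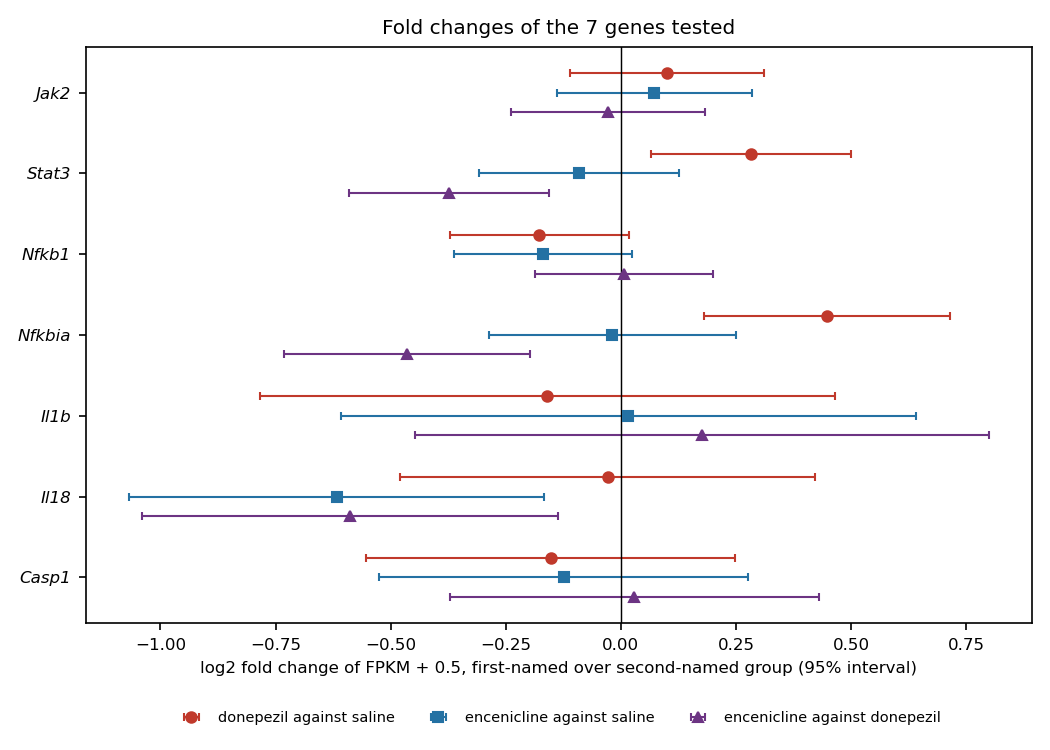
Log2 fold changes of the 7 genes tested, with 95% intervals from limma, in donepezil against saline (circles), encenicline against saline (squares) and encenicline against donepezil (triangles). Intervals of Nfkbia and Stat3 lay above 0 in donepezil against saline and below 0 in encenicline against donepezil, and those of Il18 lay below 0 in both encenicline comparisons, before adjustment over all genes. Il18 passed the filter only through donepezil and saline libraries.

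Jak2, the tyrosine kinase that passes cytokine receptor signals to the STAT factors, did not separate the groups. It had 7.66, 6.35, 7.74, 8.83 and 6.64 FPKM in donepezil libraries 1 to 5. Encenicline libraries had 8.05, 7.70, 7.01, 6.42 and 7.13 FPKM, and saline libraries 7.52, 6.22, 7.87, 7.12 and 5.79 FPKM. The 3 groups overlapped over most of their ranges. The log2 fold change was 0.10 (SE 0.10, 95% interval -0.11 to 0.31) in donepezil against saline, with an adjusted p of 0.690 in limma. It was 0.07 in encenicline against saline (adjusted p = 0.835) and -0.03 in encenicline against donepezil (adjusted p = 0.918).

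Stat3, the transcription factor that answers to IL-6 and related cytokines, had 21.1, 21.6, 18.3, 19.0 and 19.1 FPKM in donepezil libraries. Encenicline libraries had 13.1, 14.7, 16.3, 16.4 and 15.6 FPKM, and saline libraries 18.1, 16.0, 18.7, 16.7 and 12.2 FPKM. By title, every donepezil library lay above every encenicline library, and 4 of the 5 donepezil libraries lay above all saline libraries. With the groups of the treatment field both separations are lost. Encenicline 1, at 13.1 FPKM, then counts as donepezil and donepezil 1, at 21.1 FPKM, as saline. Means were 19.8 ± 1.43 FPKM with donepezil, 15.2 ± 1.35 with encenicline and 16.3 ± 2.54 with saline (SD, n = 5 each). In encenicline against donepezil the log2 fold change was -0.37 (SE 0.10), and the adjusted p of 0.0958 in limma missed the threshold. In donepezil against saline it was 0.28 (SE 0.10, adjusted p = 0.171), and in encenicline against saline -0.09 (adjusted p = 0.790). Without saline 5, the lowest saline library, Stat3 passed in encenicline against donepezil with an unchanged log2 fold change of -0.37 and an adjusted p of 0.0275, since that library enters this contrast through the shared spread. Without the 2 libraries of conflicting labels the log2 fold change was -0.30, with an adjusted p of 0.290. Over the 29 alternative settings it ran from -0.456 to -0.190. Stat3 overlaps Stat5a on the opposite strand, a gene at 2.80 FPKM, and the sources used here do not say whether counting used the strand. In bulk RNA fewer cells of a type and less RNA per cell cannot be told apart, for Stat3 or any gene below.

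Nfkb1 encodes the precursor of the NF-kB subunit p50. It had 4.16, 3.61, 4.31, 5.49 and 4.19 FPKM in donepezil libraries, 3.93, 4.72, 4.74, 4.37 and 4.00 FPKM in encenicline libraries, and 4.56, 5.23, 4.91, 4.69 and 5.36 FPKM in saline libraries. Of the 5 donepezil libraries 4 lay below all saline libraries, and donepezil 4, the library rich in macrophage and fibroblast markers, lay above them. The log2 fold change was -0.18 (SE 0.09, adjusted p = 0.361) in donepezil against saline and -0.17 (SE 0.09, adjusted p = 0.575) in encenicline against saline, so neither difference passed. Between encenicline and donepezil it was 0.01 (95% interval -0.19 to 0.20).

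Nfkbia encodes I kappa B alpha, the inhibitor that holds NF-kB in the cytoplasm, and is itself a target of NF-kB. It had 44.0, 50.2, 52.8, 38.9 and 35.2 FPKM in donepezil libraries. Encenicline libraries had 33.3, 32.0, 28.3, 35.7 and 28.9 FPKM, and saline libraries 35.8, 24.7, 37.2, 30.1 and 33.6 FPKM. The 4 highest values of the 15 were all in donepezil libraries, and donepezil 5 lay within the range of the other groups. Means were 44.2 ± 7.42 FPKM with donepezil, 31.6 ± 3.08 with encenicline and 32.3 ± 5.01 with saline (SD, n = 5 each). The log2 fold change was 0.45 (SE 0.13, adjusted p = 0.0793 in limma) in donepezil against saline and -0.47 (SE 0.13, adjusted p = 0.0919) in encenicline against donepezil, both short of the threshold. Encenicline and saline were close, at -0.02 (95% interval -0.29 to 0.25, adjusted p = 0.973). Without donepezil 5 the gene passed in donepezil against saline, at 0.52 with an adjusted p of 0.0407, and in encenicline against donepezil, at -0.54 with an adjusted p of 0.0468. With the groups of the treatment field the log2 fold change in donepezil against saline was 0.29, with an adjusted p of 0.551.

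Tnf, the cytokine whose release the pathway is known to restrain, rested on 63 reads in all 15 libraries. Donepezil libraries held 0, 0, 0, 4 and 6 reads, encenicline libraries 1, 2, 7, 2 and 9, and saline libraries 10, 9, 6, 3 and 4. In FPKM these were 0, 0, 0, 0.141 and 0.236 with donepezil, 0.0455, 0.0740, 0.260, 0.0778 and 0.370 with encenicline, and 0.364, 0.365, 0.202, 0.109 and 0.146 with saline. The 3 lowest values were those of donepezil 1 to 3, and the groups overlapped. Donepezil 1, at 0 reads, is a library of conflicting labels whose treatment field reads saline. A count of 0 allows up to 3 reads, or 0.118 to 0.123 FPKM in these 3 libraries, which reaches the lowest saline value. Summed reads were 10 with donepezil (95% Poisson interval 4.79 to 18.4), 21 with encenicline (13.0 to 32.1) and 32 with saline (21.9 to 45.2). These intervals, like the limits at a count of 0, cover counting error only. The exact two-sided permutation test of log2(FPKM + 0.5), unadjusted and with a smallest possible p of 0.00794, gave p = 0.0635 in donepezil against saline. The same exact test gave p = 0.365 in encenicline against saline and p = 0.270 in encenicline against donepezil. In limma without a filter the log2 fold change in donepezil against saline was -0.36 (95% interval -0.70 to -0.02). Its unadjusted p was 0.0385 and its adjusted p 0.482. The Poisson intervals of donepezil and saline did not overlap, but no difference in Tnf passed by either test at this depth.

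Il6 encodes the cytokine that signals to STAT3 through gp130. It had 11 reads in all: 0, 1, 2, 3 and 0 in donepezil libraries, 0, 0, 1, 0 and 1 in encenicline libraries, and 0, 0, 2, 1 and 0 in saline libraries. It was at 0 in 8 of the 15 libraries, and no library held more than 3 reads. Exact permutation tests of log2(FPKM + 0.5) gave p = 0.365 in donepezil against saline, p = 1 in encenicline against saline and p = 0.286 in encenicline against donepezil. No difference was detectable at this depth, and no fold is given.

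Il1b encodes the precursor of IL-1 beta, which caspase-1 activates. It had 0.474, 0.492, 0.173, 1.03 and 0.271 FPKM in donepezil libraries, from 5 to 34 reads each. Encenicline libraries had 0.469, 0.350, 1.09, 0.368 and 0.742 FPKM, and saline libraries 0.439, 0.174, 1.74, 0.438 and 0.502 FPKM, where saline 3 held 60 reads. Each group had high and low libraries, and the spread within saline was larger than any difference between groups. The log2 fold change was -0.16 (95% interval -0.78 to 0.46, adjusted p = 0.857) in donepezil against saline and 0.02 (-0.61 to 0.64, adjusted p = 0.992) in encenicline against saline. Between encenicline and donepezil it was 0.18 (-0.45 to 0.80, adjusted p = 0.810). The highest library of donepezil (donepezil 4) and of saline (saline 3) are the 2 libraries with the most macrophage marker RNA, and the relation with these markers is given below. Without both, the log2 fold change of Il1b in donepezil against saline was -0.06 (adjusted p = 0.916), and without saline 3 alone it was 0.11 (adjusted p = 0.875).

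Il18, the other cytokine that caspase-1 activates, was lowest with encenicline. It had 5, 7, 3, 13 and 9 reads in donepezil libraries, 4, 2, 0, 4 and 0 in encenicline libraries, and 9, 2, 14, 11 and 6 in saline libraries. In FPKM these were 0.313, 0.455, 0.192, 0.727 and 0.563 with donepezil, 0.289, 0.118, 0, 0.247 and 0 with encenicline, and 0.522, 0.129, 0.749, 0.637 and 0.348 with saline. Of the 5 encenicline libraries 3 lay below all donepezil and all saline libraries, and the other 2 lay inside both ranges. At a count of 0, encenicline 3 and 5 allow up to 0.177 and 0.196 FPKM. Il18 reached 0.5 FPKM in donepezil 4 and 5 and in saline 1, 3 and 4, and in no encenicline library. It therefore passed the filter only through the groups where it was high. Its comparisons with encenicline are given as descriptions, and their p-values do not count as evidence of a difference. The log2 fold change was -0.62 (SE 0.21) in encenicline against saline, with an unadjusted p of 0.0106 that became 0.503 after adjustment over all genes in limma. In encenicline against donepezil it was -0.59 (SE 0.21, adjusted p = 0.203), and in donepezil against saline -0.03 (95% interval -0.48 to 0.42, adjusted p = 0.971). These values depend on the pseudocount at such low counts: with 0.1 in place of 0.5 the log2 fold change of encenicline against saline was -1.42 and with 1 it was -0.38. Il18 overlaps Bco2 (0.166 FPKM) and Tex12 on the opposite strand, so part of its few reads could belong to them.

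Nlrp3 encodes the sensor of the inflammasome. It had 0.207, 0.0826, 0.228, 0.625 and 0.191 FPKM in donepezil libraries, 0.184, 0.179, 0.180, 0.188 and 0.332 FPKM in encenicline libraries, and 0.162, 0.213, 0.354, 0.147 and 0.162 FPKM in saline libraries. The groups overlapped, and donepezil 4 stood highest with 44 reads. Exact permutation tests of log2(FPKM + 0.5) gave p = 0.714 in donepezil against saline, p = 0.794 in encenicline against saline and p = 0.730 in encenicline against donepezil. Nlrp3 overlaps no other gene in the table.

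Casp1 encodes caspase-1, the protease of the inflammasome. It had 1.55, 1.16, 1.89, 2.23 and 1.55 FPKM in donepezil libraries, 2.64, 1.38, 0.894, 2.47 and 1.58 FPKM in encenicline libraries, and 1.72, 1.91, 1.92, 1.95 and 1.96 FPKM in saline libraries. The saline libraries, with 43 to 52 reads each, lay within a narrow band that the other groups enclosed on both sides. The log2 fold change was -0.15 (95% interval -0.55 to 0.25, adjusted p = 0.768) in donepezil against saline and -0.12 (-0.52 to 0.28, adjusted p = 0.853) in encenicline against saline. Between encenicline and donepezil it was 0.03 (-0.37 to 0.43, adjusted p = 0.959).

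The members were also set beside macrophage and monocyte markers, since several of them are expressed in these cells. Of 17 markers 14 were tested, and none was at 0 in all libraries. Their summed level ran from 274 to 630 FPKM in donepezil libraries, 293 to 431 FPKM in encenicline libraries and 331 to 536 FPKM in saline libraries. Across the 15 libraries Il1b had a Pearson r of 0.61 with the mean marker level (permutation p = 0.0184, adjusted p = 0.0754 over 7 members) and a Spearman rho of 0.29 (p = 0.301, adjusted p = 0.527). For Jak2 r was 0.58 (permutation p = 0.0215, adjusted p = 0.0754) and rho 0.51 (p = 0.0524, adjusted p = 0.184). Without donepezil 4 and saline 3, r was 0.07 for Il1b, 0.25 for Jak2 and 0.09 for Il18, which had 0.50 with them. These relations were thus weaker without those 2 libraries. As they hold the most marker RNA, leaving them out also narrows the range of the markers. How far the relations rest on them therefore cannot be told. For Casp1 r was 0.50 over 15 libraries (permutation p = 0.0555, adjusted p = 0.0971) and 0.52 over the 13 others (permutation p = 0.0658, adjusted p = 0.461). Its rho was 0.63 over 15 libraries (permutation p = 0.0141, adjusted p = 0.0986) and 0.58 over the 13 (permutation p = 0.0401, adjusted p = 0.281), with no adjusted p past the threshold. Over the 15 libraries Nfkbia (r = 0.07) and Stat3 (r = 0.19) showed little relation with the markers, and r was 0.38 for Nfkb1 (permutation p = 0.164, adjusted p = 0.230). After the group means were taken off, r was 0.69 for Jak2 (p = 0.0114 by permutation within groups, adjusted p = 0.0800) and 0.63 for Il1b (permutation p = 0.0248, adjusted p = 0.0823) over the 15 libraries. Without donepezil 4 and saline 3 these were 0.41 (permutation p = 0.209, adjusted p = 0.346) and -0.0044 (permutation p = 0.990, adjusted p = 0.990). There r was 0.42 for Nfkbia, 0.39 for Stat3 and -0.59 for Nfkb1 (permutation p = 0.0630), each with an adjusted p of 0.346. With the group means taken off, r of Casp1 was 0.48 over the 15 libraries (permutation p = 0.0353, adjusted p = 0.0823). Without those 2 libraries it was 0.46 (permutation p = 0.168, adjusted p = 0.346).

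**Figure D3:**
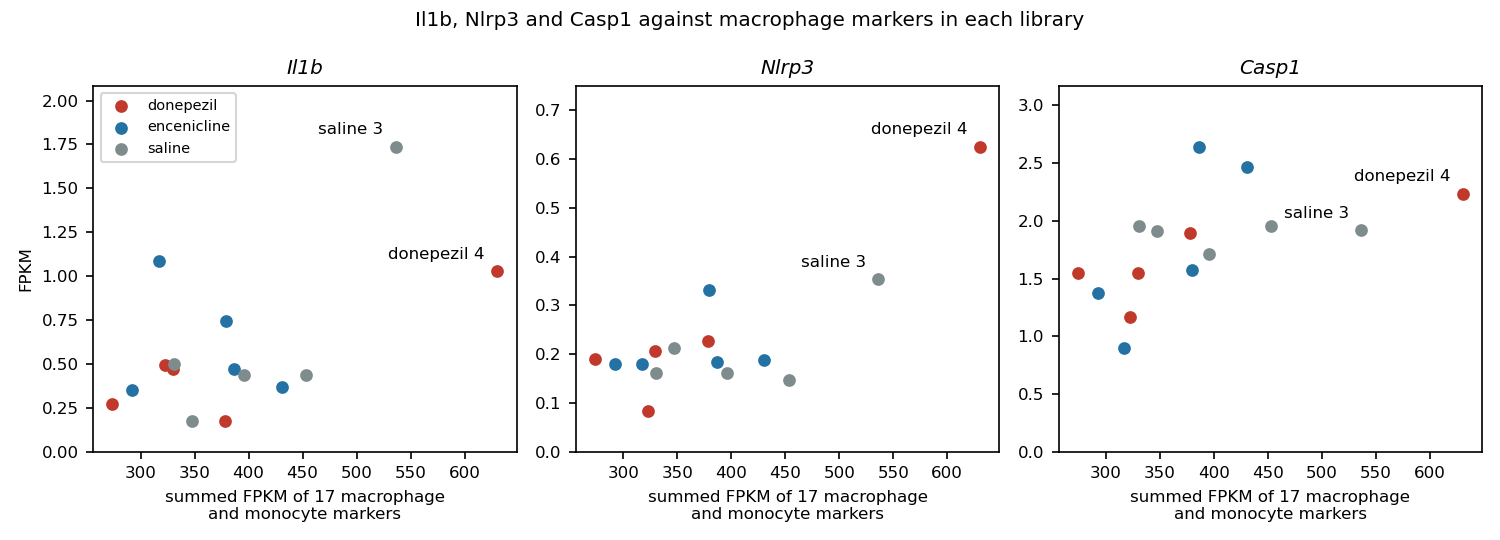
FPKM of Il1b, Nlrp3 and Casp1 in each of the 15 libraries against the summed FPKM of 17 macrophage and monocyte markers, coloured by group. Donepezil 4 (630 FPKM) and saline 3 (536 FPKM) lie to the right of all others and hold the highest Nlrp3 and Il1b values of their groups.

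The genes around the members were read from 10 lists with 176 genes, of which 128 passed the filter. In donepezil against saline 8 of the 128 rose and 1 fell (7.03%, against 2.12% of all genes), in encenicline against saline 0 passed, and in encenicline against donepezil 5 fell and 0 rose (3.91%, against 0.933%). These lists were drawn up with results of these libraries known, so their shares are descriptions. Without the 2 libraries of conflicting labels 4 passed in donepezil against saline and 2 passed in encenicline against donepezil, and with the groups of the treatment field 0 genes passed in either. Without donepezil 4 and saline 3 they were 8 and 5.

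Genes known as targets of STAT3 held most of these calls. Of 19 tested, 5 rose in donepezil against saline, where 2.12% of all genes passed. In encenicline against donepezil 3 fell, where 0.933% of all genes passed. Median log2 fold changes were 0.41 and -0.56, against 0.00 for all genes in both. As the list was drawn up with results of these libraries known, these counts are descriptions. In encenicline against saline 0 of 19 passed, with a median of -0.05. Stat3 itself did not pass, and a gene on this list can answer to other factors too.

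Cebpd, a transcription factor of the acute-phase response, had 17.7, 24.8, 20.3, 22.4 and 12.6 FPKM in donepezil libraries. Encenicline libraries had 9.52, 6.50, 8.11, 11.0 and 7.67 FPKM, and saline libraries 11.6, 7.00, 9.86, 6.63 and 8.61 FPKM. Every donepezil library lay above all libraries of the other groups. It rose by 1.11 (log2, SE 0.19, adjusted p = 0.00806 in limma) in donepezil against saline and fell by 1.13 (SE 0.19, adjusted p = 0.00979) in encenicline against donepezil.

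Myc, a growth-promoting transcription factor, had 3.06, 2.39, 3.20, 4.48 and 2.75 FPKM in donepezil libraries. Encenicline libraries had 1.35, 1.70, 1.77, 1.71 and 1.71 FPKM, and saline libraries 1.54, 1.32, 1.75, 1.19 and 1.19 FPKM. By title, the donepezil libraries stood apart from both other groups, which overlapped each other. With encenicline 1, at 1.35 FPKM, counted as donepezil by its treatment field, they did not. It rose by 0.94 (log2, SE 0.13, adjusted p = 0.00231 in limma) in donepezil against saline and fell by 0.76 (SE 0.13, adjusted p = 0.0109) in encenicline against donepezil.

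Il4ra, the receptor chain shared by IL-4 and IL-13, had 9.53, 9.83, 8.22, 9.65 and 7.01 FPKM in donepezil libraries, 4.55, 4.31, 4.89, 4.56 and 5.99 FPKM in encenicline libraries and 5.69, 4.96, 6.32, 4.86 and 4.40 FPKM in saline libraries. Again no library titled donepezil reached the range of the others. Encenicline 1, at 4.55 FPKM, lies in that range and reads donepezil in its treatment field. It rose by 0.70 (log2, SE 0.11, adjusted p = 0.00716 in limma) in donepezil against saline and fell by 0.80 (SE 0.11, adjusted p = 0.00349) in encenicline against donepezil.

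Bcl2l1, which encodes the survival protein BCL-XL, averaged 28.4 ± 6.86 FPKM with donepezil, 17.9 ± 4.06 with encenicline and 12.9 ± 5.32 with saline (SD, n = 5 each). It rose by 1.16 (log2, SE 0.24, adjusted p = 0.0204) in donepezil against saline. Lcn2, the secreted iron-siderophore carrier lipocalin-2, averaged 5.86 ± 2.33 FPKM with donepezil, 2.39 ± 0.981 with encenicline and 1.70 ± 1.31 with saline, and rose by 1.66 (log2, SE 0.37, adjusted p = 0.0308) in donepezil against saline. Neither passed in encenicline against donepezil. The call of Bcl2l1 was lost without donepezil 1, 2 or 3 or saline 2 or 4 (adjusted p 0.0517 to 0.0614), and that of Lcn2 without donepezil 1, 2 or 3 or saline 2, 4 or 5 (0.0507 to 0.0846). Socs3, the feedback inhibitor of JAK signalling that STAT3 induces, did not pass: it averaged 4.22 ± 1.44 FPKM with donepezil, 2.43 ± 0.300 with encenicline and 2.90 ± 0.667 with saline, with an adjusted p of 0.239 for donepezil against saline and of 0.116 between encenicline and donepezil.

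**Figure D4:**
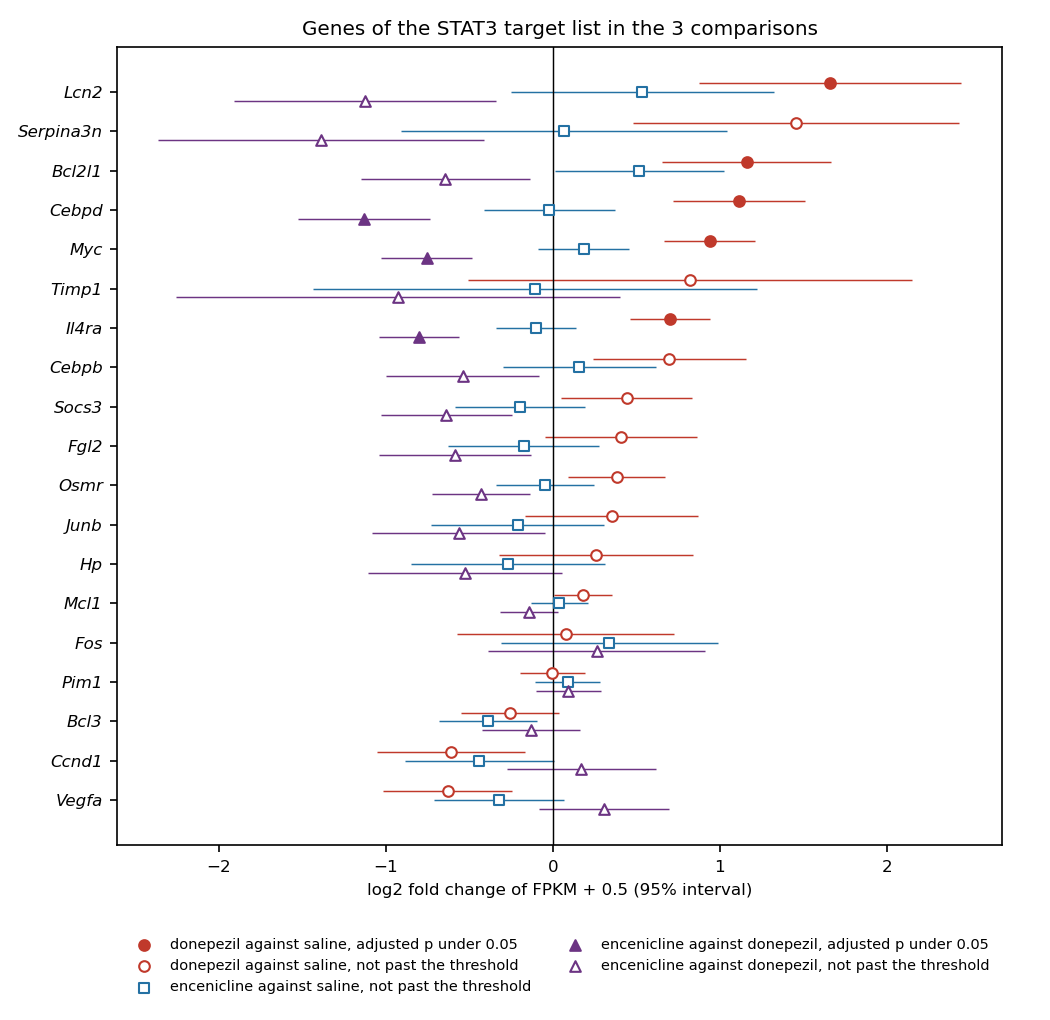
Log2 fold changes with 95% intervals of the 19 STAT3 target genes tested, in donepezil against saline (circles), encenicline against saline (squares) and encenicline against donepezil (triangles), with filled markers for an adjusted p under 0.05. Lcn2, Bcl2l1, Cebpd, Myc and Il4ra are filled in donepezil against saline, Cebpd, Myc and Il4ra in encenicline against donepezil, and none in encenicline against saline.

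In the rest of JAK-STAT signalling 0 of 18 genes passed in any comparison. Stat2, a transcription factor of interferon signalling, had the smallest p of the list, with 3.17 ± 0.254 FPKM with donepezil, 2.83 ± 0.0840 with encenicline and 4.40 ± 1.10 with saline (SD, n = 5 each). Its log2 fold change of -0.53 in encenicline against saline had an unadjusted p of 0.000267 and an adjusted p of 0.400. Of the IL-6 family and its receptors 0 of 8 passed. Il6ra, the IL-6 receptor chain, averaged 1.64 ± 0.473 FPKM with donepezil, 1.15 ± 0.174 with encenicline and 1.03 ± 0.190 with saline, and its log2 fold change of 0.46 in donepezil against saline had an adjusted p of 0.105.

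Among NF-kB subunits, inhibitors and kinases 0 of 21 passed in any comparison, with a median log2 fold change of 0.03 in donepezil against saline, -0.07 in encenicline against saline and -0.09 between encenicline and donepezil. Of 19 NF-kB target genes tested 1 passed, in donepezil against saline, where 2.12% of all genes passed. Csf1, the growth factor of macrophages, fell there by 0.60 (log2, SE 0.14, adjusted p = 0.0329 in limma). It had 6.66, 5.75, 6.21, 7.15 and 5.36 FPKM in donepezil libraries, 7.10, 7.49, 9.71, 9.33 and 9.69 FPKM in encenicline libraries and 9.34, 11.1, 11.2, 10.9 and 6.62 FPKM in saline libraries. The saline libraries other than saline 5 lay above every donepezil library. The median log2 fold change of the NF-kB targets was -0.17 for donepezil against saline, and -0.18 for encenicline against saline, where 0 passed. The call of Csf1 was lost without donepezil 1, 2, 3 or 5 or saline 2, 3 or 4 (adjusted p 0.0595 to 0.0904). Of the TNF receptors and adaptors 0 of 14 passed, and Tnfrsf1a, the main TNF receptor, averaged 29.6 ± 3.17 FPKM with donepezil, 26.7 ± 3.23 with encenicline and 29.3 ± 5.03 with saline.

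Of 17 Toll-like receptor genes tested, 1 passed. Irak2, a kinase that carries signals from these receptors towards NF-kB, had 4.24, 3.69, 3.71, 3.44 and 3.77 FPKM in donepezil libraries, 2.72, 2.31, 2.39, 2.46 and 2.34 FPKM in encenicline libraries and 2.27, 2.23, 2.19, 2.14 and 3.55 FPKM in saline libraries. The donepezil libraries lay above all encenicline libraries, and saline 5 reached into their range. Encenicline and donepezil libraries did not overlap for 4.07% of all genes tested. It rose by 0.54 (log2, SE 0.11, adjusted p = 0.0165 in limma) in donepezil against saline and fell by 0.54 (SE 0.11, adjusted p = 0.0259) in encenicline against donepezil. Without donepezil 1 the adjusted p was 0.0517 and 0.0797, and in encenicline against donepezil the call was also lost without donepezil 2 or encenicline 2, 3, 4 or 5 (0.0515 to 0.0706). Tlr4, the receptor of bacterial endotoxin, averaged 4.74 ± 1.15 FPKM with donepezil, 2.74 ± 0.447 with encenicline and 3.09 ± 1.06 with saline and did not pass (adjusted p = 0.135 for donepezil against saline and 0.0992 between encenicline and donepezil).

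Of 14 further inflammasome genes tested, 2 rose in donepezil against saline, where 2.12% of all genes passed. In encenicline against donepezil 1 fell, where 0.933% of all genes passed. Txnip, a thioredoxin-binding protein that has been linked to NLRP3 activation, had 315, 275, 327, 308 and 326 FPKM in donepezil libraries, 174, 260, 181, 152 and 130 FPKM in encenicline libraries and 119, 157, 133, 186 and 142 FPKM in saline libraries. Every donepezil library lay above every library of the other groups. It rose by 1.08 (log2, SE 0.16, adjusted p = 0.00312 in limma) in donepezil against saline and fell by 0.83 (SE 0.16, adjusted p = 0.0217) in encenicline against donepezil, a call that was lost without donepezil 1 or encenicline 4 or 5 (adjusted p 0.0553 to 0.0587). Nek7, the kinase that binds NLRP3 when the inflammasome assembles, averaged 18.2 ± 1.33 FPKM with donepezil, 15.3 ± 1.58 with encenicline and 12.9 ± 1.59 with saline (SD, n = 5 each), and rose by 0.49 (log2, SE 0.09, adjusted p = 0.0144) in donepezil against saline. Txnip and Nek7 are widely expressed genes with roles outside the inflammasome. The adaptor Pycard averaged 0.873 ± 0.170 FPKM with donepezil, 1.03 ± 0.144 with encenicline and 0.962 ± 0.250 with saline, and the pore protein gene Gsdmd averaged 4.93 ± 1.71 FPKM with donepezil, 4.41 ± 0.712 with encenicline and 5.45 ± 0.743 with saline. Neither passed in any comparison.

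With each sample scaled to the same sum (TPM), 4 list genes passed in donepezil against saline, Cebpd, Myc, Bcl2l1 and Txnip, and the calls of Lcn2, Il4ra, Csf1, Irak2 and Nek7 were lost, with adjusted p of 0.0540 to 0.0733. Without the 2 libraries of conflicting labels Cebpd, Myc, Il4ra and Txnip passed in donepezil against saline, and Cebpd and Il4ra in encenicline against donepezil.

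At the head of the pathway stand the drugs' own targets. Chrna7, the alpha7 nicotinic receptor, had 14 reads in all 15 libraries and was at 0 in 7 of them, with at most 5 reads in a library (donepezil 1, 0.0716 FPKM). Chrm2, the muscarinic receptor of the heart, averaged 9.80 ± 2.31 FPKM with donepezil, 13.4 ± 2.61 with encenicline and 9.70 ± 1.82 with saline (SD, n = 5 each), and its log2 fold change of 0.45 in encenicline against saline had an adjusted p of 0.514. Ache, the enzyme that donepezil inhibits, averaged 0.463 ± 0.0959 FPKM with donepezil, 0.629 ± 0.179 with encenicline and 0.642 ± 0.160 with saline. Bche, the related butyrylcholinesterase, averaged 2.59 ± 0.0798 FPKM with donepezil, 2.58 ± 0.212 with encenicline and 2.94 ± 0.659 with saline. Of 6 genes of cholinergic signalling tested 0 passed in any comparison. The smallest p was that of Chrna2, a nicotinic receptor subunit, with an adjusted p of 0.0964 in donepezil against saline in limma. It averaged 1.07 ± 0.578 FPKM with donepezil, 0.525 ± 0.225 with encenicline and 0.415 ± 0.163 with saline. By title its donepezil libraries lay above all saline libraries, and groups did not overlap for 3.90% of all genes tested. It passed in 1 of 28 alternative settings. Donepezil 2 had 2.09 FPKM, against 0.749 to 0.954 FPKM in the other donepezil libraries. Outside donepezil it reached 0.5 FPKM only in encenicline 1, 2 and 5 and saline 2, too few libraries for the filter. It was therefore tested only because of its high donepezil libraries. Its comparisons with donepezil are given as descriptions, and their p-values do not count as evidence of a difference.

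Genes whose levels ran most alike with a member were found by Pearson r of log2(FPKM + 0.5) over the 15 libraries after the group means were taken off, among protein-coding genes averaging 1 FPKM or more. They were Tmem184c (r = 0.95) and Gnptab (0.93) for Jak2, and Srxn1 (0.90), Slc17a7 (0.89) and Usp20 (0.88) for Stat3. For Nfkb1 they were Heyl (0.91), Acvr1 (0.90) and Sertad4 (0.89), and for Nfkbia Atg101 (0.84), Stx3 (0.81) and Ly6c1 (0.80). For Il1b they were Ctdspl (0.85), Rhou (0.84) and Scx (0.84), for Il18 Fkbp7 (0.81), Dnajc3 (0.80) and Fam49b (0.78), and for Casp1 Rbm7 (0.86), Esd (0.86) and Nip7 (0.86). These are the highest of 10220 or 10221 values for each member, which all share library depth and cell content, and they are given as descriptions.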

How the data were processed

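The deposited values are FPKM, for 54532 genes in each of 15 libraries. The submitters' processing notes name DESeq 1.8.3, featureCounts 1.5.0-p3 and HISAT and the build GRCm38, without roles or order. Multiplied by gene length and by a constant for each library, the deposited FPKM values were whole reads within 0.05 reads in 100% of values; the implied library size was 0.925 to 1.15 times the recovered total, by a step not given in the sources used here. In all, 0 sample columns stayed unmapped.

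Libraries were grouped by title. Genes that reached 0.5 FPKM in 5 or more libraries were fitted as log2(FPKM + 0.5) with limma 3.58.1 (R 4.3.3), 1 model over all 15 libraries with a trended prior and no block, Benjamini-Hochberg adjusted, called under 0.05. The 3 members below the filter had exact permutation tests over 252 splits (scipy 1.17.1). Correlations used 100000 permutations, within groups where group means were taken off. The pipeline was tested on simulated data.

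Replicate numbers recur in each group without a stated meaning. Deviations of same-numbered libraries from their group means correlated at -0.09 to 0.20, over 0.1 in 4 of 15 pairs, so the numbers were not taken to pair libraries.

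Genes named are the members, Chrna7, Chrm2, Ache and Bche, of each list those that passed or had up to 3 smallest p, and the 3 genes most like each member (1 of those for Jak2 is not reported here); other list genes (Il6ra, Socs3, Tnfrsf1a, Tlr4, Pycard and Gsdmd among them) were chosen for their role after their values were seen. Members and lists were chosen with earlier results of these data known. Alternatives were a pseudocount of 0.1 or 1, a filter at 2 FPKM or none, scaling by median ratios, by quantiles, to TPM or without mitochondrial genes, only the 10 libraries compared, a replicate block, limma voom on recovered reads, both readings of the labels, each library left out, and, chosen after seeing the data, donepezil 4 and saline 3 left out together.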

Additional observations from a re-analysis of the deposited data

Results flagged for a closer look

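In 4 gene and group combinations a single library stood further from the other 4 than Dixon's 95% limit allows; chance flags about 1 in 20 groups, and no cause was tested. Il1b in saline 3 had 1.74 FPKM, against 0.174 to 0.502 FPKM in the other saline libraries. Nlrp3 in donepezil 4 had 0.625 FPKM, against 0.0826 to 0.228 FPKM in the other donepezil libraries. These are the libraries with the most macrophage marker RNA, 536 FPKM in saline 3 and 630 FPKM in donepezil 4. Nlrp3 in encenicline 5 had 0.332 FPKM, from 20 reads, against 0.179 to 0.188 FPKM in the other encenicline libraries. Casp1 in saline 1 had 1.72 FPKM, against 1.91 to 1.96 FPKM in the other saline libraries. Saline 1 and saline 2 held 43 Casp1 reads each, so this gap is small beside counting error.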

How the results depend on the processing

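No member passed in any comparison under the alternatives, except when donepezil 5 was left out (Nfkbia, in both donepezil comparisons) or saline 5 was left out (Stat3 in encenicline against donepezil), so with 1 library left out the number of members called was 0 to 1. List genes called in donepezil against saline numbered 9, and 4 with TPM, 4 with only the 10 libraries compared, 4 without the 2 libraries of conflicting labels and 0 with the groups of the treatment field, and 5 to 12 with 1 library left out. In encenicline against donepezil they numbered 5, and 3 with no filter, 2 without the conflicting libraries, 0 with the groups of the field, and 3 to 6 with 1 library left out. Over all genes, 284 were called in donepezil against saline, and 119 with no filter, 63 with only the 10 libraries, 162 with TPM, 82 without the conflicting libraries, 0 with the groups of the field and 105 to 409 with 1 library left out. In encenicline against donepezil 125 were called, and 46 with no filter, 53 with TPM, 27 without the conflicting libraries, 0 with the groups of the field and 48 to 177 with 1 library left out. The 158 genes higher and 126 lower in donepezil against saline became 56 and 106 with TPM, 106 and 173 with voom, and 127 and 151 with scaling without mitochondrial genes; the 59 and 66 of encenicline against donepezil became 17 and 36, 59 and 95, and 50 and 79. With TPM the median gene had a log2 fold change of -0.07 in donepezil against saline, -0.13 in encenicline against saline and -0.07 in encenicline against donepezil. With the replicate number as a block (replicate block), the calls were 298 in donepezil against saline and 114 between encenicline and donepezil, with 9 and 5 list genes and 0 members; the adjusted p of Lcn2 in donepezil against saline was 0.0503, and no other list call was lost. The causes of these shifts were not tested.

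Differences near 0, none of which passed under any setting, changed sign. In encenicline against saline these were Il1b (-0.00379 with a pseudocount of 1, -0.0701 with TPM, -0.0221 without mitochondrial genes, -0.146 to 0.286 with 1 library left out), Jak2 (-0.0823 with TPM, -0.0326 with voom), Nlrp3 (-0.0389 with TPM, -0.0434 to 0.0833 with 1 left out), Nfkbia (0.0355 without donepezil 4 and saline 3, -0.110 to 0.0355 with 1 left out), Casp1 (-0.253 to 0.0394 with 1 left out) and Il6 (-0.0213 to 0.0124 with 1 left out). Between encenicline and donepezil they were Nfkb1 (-0.00148 with median ratios, -0.0713 with TPM, -0.0267 without mitochondrial genes, -0.0373 with voom, -0.0498 to 0.0856 with 1 left out), Casp1 (-0.0489 with TPM, -0.00221 without mitochondrial genes, -0.0327 with voom, -0.117 without the conflicting libraries, -0.223 with the groups of the field, -0.101 to 0.192 with 1 left out), Jak2 (0.0320 without donepezil 4 and saline 3, -0.0795 to 0.0320 with 1 left out) and Nlrp3 (-0.162 to 0.0750 with 1 left out). In donepezil against saline they were Il18 (0.0105 with quantiles, 0.0203 without the conflicting libraries, 0.000251 with the groups of the field, -0.177 to 0.0785 with 1 left out), Il1b (-0.332 to 0.110 with 1 left out), Nlrp3 (-0.0614 to 0.176 with 1 left out) and Casp1 (0.00654 with the groups of the field). The correlation of Nfkbia with macrophage markers was -0.0113 with a pseudocount of 0.1. Depth limits Tnf, Il6, Il18 and Nlrp3 most, with at most 10, 3, 14 and 44 reads in a library.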
